A study of Mus musculus with 6 samples.

Results

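The FGF receptor genes Fgfr1, Fgfr2, Fgfr3 and Fgfr4, the coreceptor gene Klb and the endocrine ligand genes Fgf15 and Fgf21 were followed in mouse primary hepatocytes exposed to an agonist of the bile acid receptor FXR. They were chosen by symbol, from probe sets that the platform annotation pairs with exactly 1 gene symbol, keeping the probe set with the highest mean over all arrays. All 7 genes were measured, among 22180 in the series. The cells came from livers of wild type adult male C57Bl/6 mice and were kept in William's medium without serum. GW4064, a synthetic FXR agonist, was given at 2 µM for 4 h, and the controls received the solvent DMSO. Each group holds 3 arrays, numbered 1 to 3 in the titles, and the series names 3 independent preparations. The labels do not say whether animals were pooled for a preparation, nor that a number marks one.

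Fibroblast growth factors signal through receptor tyrosine kinases, and most of them act near their source because they hold on to heparan sulfate. The endocrine members bind it weakly, travel in blood and need a klotho protein as coreceptor. In the bile acid loop, FXR in the ileum raises Fgf15, which reaches the liver, binds FGFR4 together with beta-klotho, the product of Klb, and lowers bile acid synthesis through Cyp7a1. Fgf21 is a liver hormone of fasting and stress that acts through beta-klotho and mainly FGFR1 in other tissues.

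The treatment was checked through a known FXR target. Abcb11, the bile salt export pump gene, lay between 4.74 and 5.09 on the log2 intensity scale in DMSO and between 7.80 and 8.14 with GW4064, with no overlap. Its limma adjusted p was 3.70e-05, and 11 of the 22180 genes passed an adjusted p under 0.05, all of them raised. With the replicate number as a block 18 passed, 16 higher and 2 lower. Hepatocyte markers were high in every array, with a mean log2 level over the 10 markers, Alb among them, of 10.2 to 10.3 in DMSO and 10.1 to 10.3 with GW4064. Array medians lay within 0.053 of each other.

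None of the 7 FGF genes passed that threshold, where 0.0496% of all genes did. With the replicate number as a block in the fit, 0.0812% of all genes passed and again none of the 7. An unadjusted p under 0.05 was reached by 1 of the 7 in the unblocked fit, against 5.66% of all genes, and by 2 of the 7 in the blocked fit, against 9.13% of all genes. Those were Fgfr2, and with the block also Klb, both with higher means under GW4064. The median log2 change was 0.07 over the 7 genes and -0.02 over all genes. In a culture, more RNA per cell and more cells of a type that carries it cannot be told apart, and this holds for every level here.

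**Figure D1:**
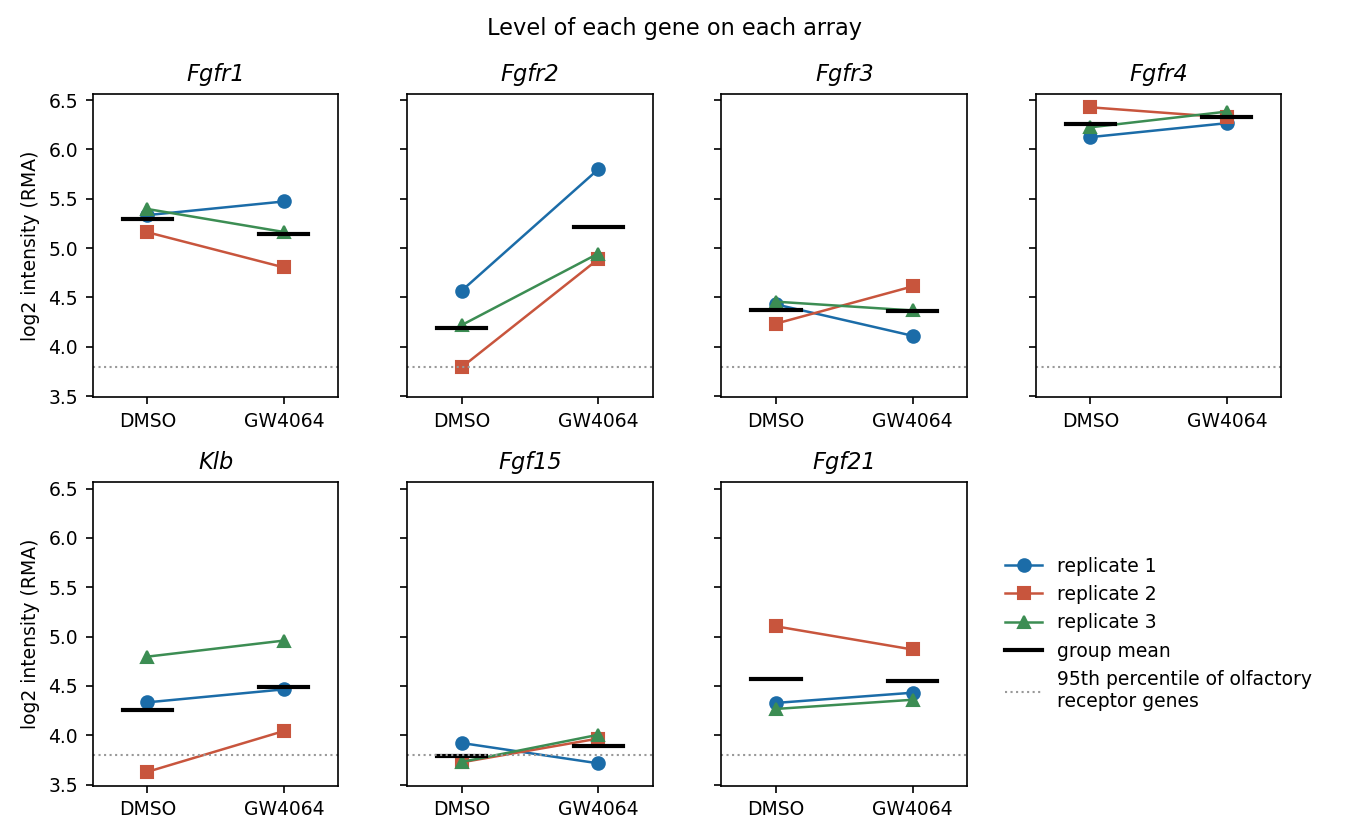
Log2 intensity of the 7 genes on each array, with lines joining arrays of the same replicate number, black bars at the group means, and a dotted line at 3.80, the 95th percentile of 1105 olfactory receptor genes. The GW4064 points of Fgfr2 all lie above its DMSO points, while those of the other 6 genes overlap.

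Fgfr2 encodes a receptor whose splice forms take up FGFs of mesenchymal or epithelial origin. Its level was 4.57, 3.79 and 4.22 in DMSO arrays 1, 2 and 3 and 5.80, 4.89 and 4.94 in the corresponding GW4064 arrays. Every GW4064 array was above every DMSO array, which was so for 4.58% of all genes in that direction. In both groups array 1 was the highest and array 2 the lowest. The value of DMSO array 2 lay just under 3.80, the 95th percentile of olfactory receptor genes.

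The Fgfr2 means were 4.19 ± 0.39 and 5.21 ± 0.51 (log2 level ± SD, n = 3 arrays each), a difference of 1.02 with an SE of 0.26. On the linear scale this is 2.02-fold, with a 95% interval of 1.35 to 3.05, and the limma adjusted p was 0.611. It was the 14th largest difference upwards among all genes and the 130th smallest p. With arrays left out one at a time the difference ran from 0.72, without GW4064 replicate 1, to 1.21, without DMSO replicate 1.

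By same-numbered pairs the Fgfr2 difference was 1.23, 1.10 and 0.73. Taking these pairs as blocks narrowed the 95% interval to 1.67-fold to 2.45-fold and brought the limma adjusted p to 0.0679. In blocked fits chosen after the data were seen, Fgfr2 did pass when genes under the median level were left out (adjusted p = 0.0238) and under a trended, robust variance model (0.000394). Each of these blocked fits, the one with 0.0679 included, rests on 2 residual degrees of freedom per gene. The trended, robust fit called 338 genes in all, 170 higher and 168 lower, and its share of false calls was not examined. Over all 23 alternatives the limma adjusted p of Fgfr2 ran from 0.000394 to 0.999, and its difference was above 0 in each.

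The stretch before the Fgfr2 start is shown because Fgfr2 had the widest separation of the 7, next to that of Klb, the other gene higher in every pair, and of Abcb11, the gene with the largest response. Each holds the 250 bases before the start, from RefSeq on GRCm38.p6. Capitals mark matches to the inverted repeat IR-1, which FXR binds as a dimer with RXR. It was written as the half-site AGGTCA, any base, and the reverse half-site TGACCT, with up to 2 mismatches allowed, and it reads alike on both strands.
Fgfr2 (chr7:130266809-130267058, minus strand): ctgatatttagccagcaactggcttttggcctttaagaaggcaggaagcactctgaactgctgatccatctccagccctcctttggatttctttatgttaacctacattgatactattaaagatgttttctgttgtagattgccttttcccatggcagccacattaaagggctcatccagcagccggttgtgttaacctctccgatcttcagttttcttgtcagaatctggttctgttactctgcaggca
Klb (chr5:65348161-65348410, plus strand): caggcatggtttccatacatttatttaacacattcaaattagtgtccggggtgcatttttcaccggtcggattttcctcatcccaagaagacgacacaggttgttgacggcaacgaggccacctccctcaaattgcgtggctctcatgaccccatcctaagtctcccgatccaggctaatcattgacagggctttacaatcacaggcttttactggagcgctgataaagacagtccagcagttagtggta
Abcb11 (chr2:69342617-69342866, minus strand): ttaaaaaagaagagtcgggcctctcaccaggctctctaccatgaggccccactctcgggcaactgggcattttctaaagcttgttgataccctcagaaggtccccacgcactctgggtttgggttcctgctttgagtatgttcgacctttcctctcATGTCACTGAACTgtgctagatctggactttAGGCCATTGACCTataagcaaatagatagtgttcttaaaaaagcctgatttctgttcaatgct

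The Abcb11 stretch had 2 such matches, ATGTCACTGAACT at 94 to 82 bases before the start and AGGCCATTGACCT at 63 to 51 bases before it. The second also contains the single half-site AGGTCA, on the other strand. Among 32851 mouse promoter windows of the same length 0.959% held such a match, 14% held the half-site on either strand, and 2 held the full IR-1 without a mismatch. The window of Nr0b2, which also rose, held neither. RefSeq windows were matched for Fgfr2, Fgfr3 (2 starts), Fgfr4, Klb and Fgf21. In these 6 windows neither the half-site nor the IR-1 within 2 mismatches was found, which says only that these letters are not in these stretches. Fgfr2 had 2 CpG in its window and Klb 9, against a median of 6.

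Fgfr4 is the main FGF receptor of hepatocytes and the one that receives Fgf15. It was measured at 6.12, 6.43 and 6.22 in DMSO and at 6.27, 6.32 and 6.38 with GW4064. The groups overlapped, and the difference of 0.07 (SE 0.11, limma adjusted p = 0.998) was smaller than the SD of 0.15 between DMSO arrays. The 95% interval of its fold ran from 0.887 to 1.24.

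Fgfr1, the receptor that Fgf21 uses in fat and brain, lay at 5.33, 5.16 and 5.40 in DMSO and at 5.47, 4.80 and 5.16 with GW4064. Only array 2 of the GW4064 group stood below all DMSO arrays. The difference was -0.15 (SE 0.16, fold interval 0.700 to 1.16, limma adjusted p = 0.998), and it became 0.02 without GW4064 replicate 2.

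Fgfr3, known best as a brake on bone growth, lay at 4.43, 4.23 and 4.46 in DMSO and at 4.11, 4.61 and 4.37 with GW4064. The pairs differed in sign, at -0.32, 0.38 and -0.09. Its mean difference was -0.01 (SE 0.14, fold interval 0.802 to 1.23, limma adjusted p = 0.999).

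**Figure D2:**
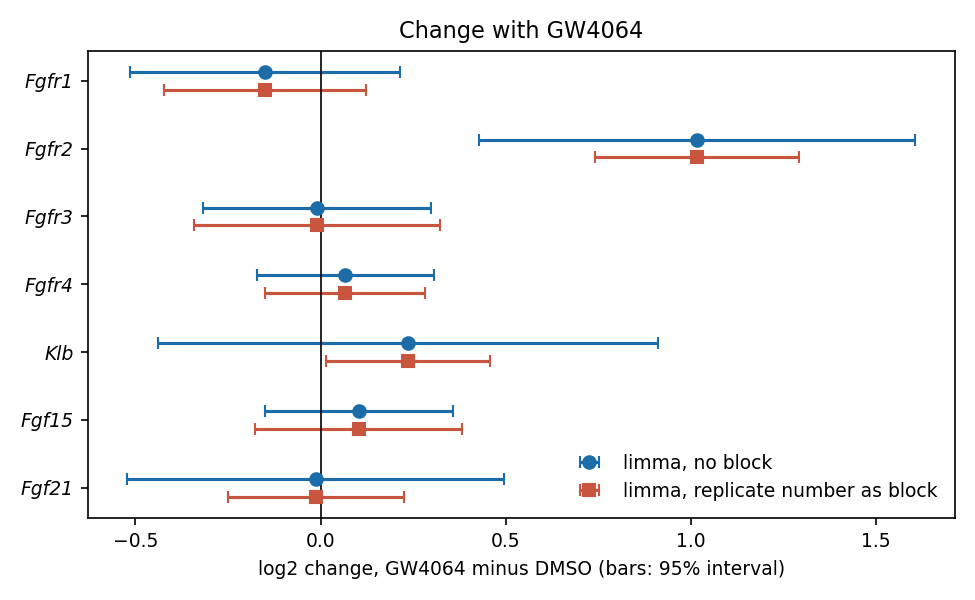
Log2 change (GW4064 minus DMSO) of the 7 genes with 95% intervals from limma, without a block (circles) and with the replicate number as a block (squares). The Fgfr2 interval lies above 0 in both fits, the Klb interval only with the block, from 0.02 to 0.46, and the other 5 intervals include 0.

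Klb, whose product gives the endocrine FGFs their grip on the receptors, lay at 4.33, 3.63 and 4.80 in DMSO arrays 1, 2 and 3. With GW4064 the values were 4.46, 4.04 and 4.96. The groups overlapped widely, because array 2 was low and array 3 high in both. Within pairs, however, GW4064 was higher each time, by 0.13, 0.41 and 0.16, as it was for 12.6% of all genes.

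The mean Klb difference was 0.24, with an SE of 0.30 in the unblocked and 0.09 in the blocked fit. Klb passed in neither, with a limma adjusted p of 0.998 and 0.525. Without DMSO replicate 2, the lowest of its 6 values, the unpaired difference was -0.08. That lowest value, 3.63, lay under the olfactory receptor percentile of 3.80.

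Fgf15 is made in the ileum and is not known as a product of the healthy adult liver. Its kept probe set read 3.92, 3.73 and 3.73 in DMSO and 3.72, 3.97 and 4.00 with GW4064. Olfactory receptor genes, taken as genes that hepatocytes do not use, had a 95th percentile of 3.80, and 3 of the 6 Fgf15 values lay under it. A gene with a mean over this percentile is called above the olfactory range. The Fgf15 mean of 3.84 was just above it, with the DMSO means of both its probe sets below it. The difference was 0.10 (SE 0.11, fold interval 0.901 to 1.28, limma adjusted p = 0.998). The second Fgf15 probe set gave means of 3.69 ± 0.25 and 3.81 ± 0.05 (n = 3 each) and a difference of 0.11.

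Fgf21 lay at 4.33, 5.10 and 4.27 in DMSO and at 4.43, 4.87 and 4.36 with GW4064. Both arrays numbered 2 stood above the other 4, and the groups overlapped. The difference was -0.01 (SE 0.23, fold interval 0.697 to 1.41, limma adjusted p = 0.999). With the block the interval was 0.841 to 1.17, and the pairs gave 0.10, -0.23 and 0.09.

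The replicate number and the treatment thus weighed very differently on the 7 genes. Of the variation of Klb over the 6 arrays, taken as the sum of squares, 91.0% lay between replicate numbers and 7.0% between treatments. For Fgf21 the shares were 93.7% and 0.041%. Over all genes the medians of these shares were 46.7% and 11.8%. There are 3 numbers but 2 treatments, so even without any effect the share between numbers is the larger on average. A smaller share between numbers than that of Klb was held by 92.9% of all genes, and than that of Fgf21 by 95.5%. Fgfr2 was the reverse, with 65.4% between treatments and 31.7% between numbers, and 94.0% of all genes had a smaller treatment share.

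Averaged over both treatments, Klb lay at 4.40, 3.84 and 4.88 for numbers 1, 2 and 3, and Fgf21 at 4.38, 4.99 and 4.31. Number 2 was thus the lowest for Klb and the highest for Fgf21. The endothelial marker mean (10 of 10 measured, 7 above the olfactory range) was also highest on the arrays numbered 2, at 4.61 in DMSO and 4.53 with GW4064, against 4.20 to 4.30 on the other 4. No other marker list mean was highest there in both groups. Single endothelial markers had shares between numbers from 7.0% for Oit3 to 98.2% for Stab2. Hepatocyte markers had as wide a range, from 15.4% for Hnf4a to 99.1% for Cyp2e1. Like Klb, Cyp2e1 was lowest on number 2, at 6.87 in DMSO and 6.91 with GW4064, against 7.14 to 8.27 on the other 4. So was the macrophage marker Cd68, at 8.53 and 8.46, against 9.63 to 10.02. These 2 were named after their values were seen. The part of other cells in the Klb and Fgf21 values was not tested. For Fgf15, Fgfr3 and Fgfr4 the remainder, left by both number and treatment, was 79.7%, 81.1% and 35.1%.

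**Figure D3:**
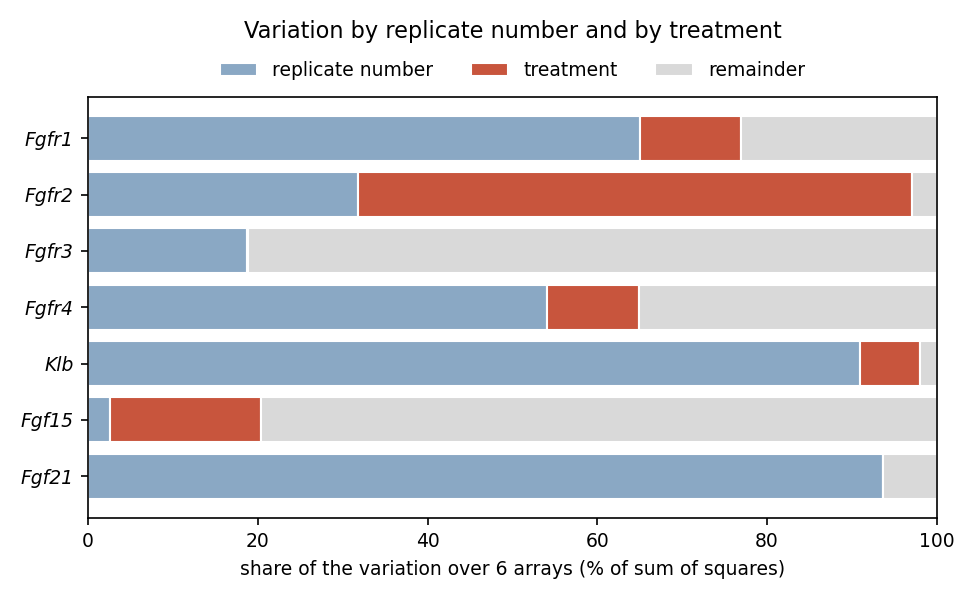
Share of each gene's sum of squares over the 6 arrays that lies between replicate numbers, between treatments, and in the remainder. Replicate number takes 91.0% for Klb and 93.7% for Fgf21, and treatment takes 65.4% for Fgfr2.

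Because Fgfr2 is also known from bile duct and mesenchymal cells, the markers of other liver cells were set beside it. The mean log2 level of 6 cholangiocyte markers was 4.10 to 4.18 in DMSO and 4.08 to 4.28 with GW4064, with 3 of the 6 above the olfactory range. Of the 6, 4 were higher and 2 lower. The duct gene Sox9 had 7.31 ± 0.25 and 7.76 ± 0.30 (n = 3 each, limma adjusted p = 0.858, 0.204 with the block), with overlap between groups. It was higher in all 3 pairs, by 0.39, 0.47 and 0.50, as were 12.6% of all genes. Epcam, a defining surface marker, had 2.66 ± 0.06 and 2.71 ± 0.05, not above that range. The keratin genes Krt19 and Krt7 lay above it, each with a difference of 0.11 (limma adjusted p = 0.998 for each). Cftr and Muc1, not above it, had -0.20 and -0.16 (limma adjusted p = 0.949 and 0.952). Both were lower in all 3 pairs, as were 4120 of all 22180 genes. The Muc1 groups did not overlap, as for 6.19% of all genes downwards. The part of such cells in the Fgfr2 values was not tested. The 10 stellate cell and fibroblast markers, 6 of them above that range, had 3.94 to 4.03 in DMSO and 3.97 to 4.10 with GW4064. Of the 10, 8 had higher and 2 lower means with GW4064, with differences from -0.18 to 0.16, where 55.4% of all genes were lower. None of the 10 reached an unadjusted p under 0.05 in limma, with or without the block.

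The 10 Kupffer cell and macrophage markers gave 4.01 to 4.15 and 3.99 to 4.18, with 5 above the range, and 5 were higher and 5 lower. For 9 other leukocyte markers the values were 2.96 to 3.05 and 2.89 to 2.97, with 1 above it, and 4 were higher and 5 lower. Of the 10 hepatocyte markers 4 were higher and 6 lower, and of the 10 endothelial markers 3 were higher and 7 lower. None of the listed markers of any cell type passed an adjusted p under 0.05 in limma, with or without the block. At an unadjusted p under 0.05 without the block there were 3, namely Sox9, Hnf4a and Cd79b, named after their values were seen. That p was reached by 5.66% of all genes. With the block, 1 of 10 hepatocyte markers was higher and 2 lower at that p, and 1 of 10 endothelial markers higher and 1 lower. Of 6 cholangiocyte markers 1 was higher, of 9 other leukocyte markers 1 was lower, and in the other lists none, against 9.13% of all genes.

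Over the 6 arrays the 5 genes with the pattern most like that of Fgfr2 were Dnase1l3, Igsf8, Col3a1, Cct7 and Arl14epl, with Pearson r between 0.977 and 0.983. The search covered 14889 genes, and same-numbered arrays deviate together, so r is given as a description. Their own log2 changes were small, from 0.08 for Cct7 to 0.28 for Igsf8, and none passed (limma adjusted p 0.858 to 0.998). Col3a1 had a mean level of 3.86, just above the olfactory 95th percentile of 3.80, and read 3.77 in DMSO array 2. It is also 1 of the 10 stellate cell and fibroblast markers, with a difference of 0.10, no overlap between groups and higher values in all 3 pairs. Of all genes, 4.58% lay apart upwards in this way and 12.6% were higher in all 3 pairs. Among the 10 markers 2 lay apart upwards, and over all 3 pairs 2 were higher and 1 lower. Likeness here is one of shape, not of size.

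The other genes of the FGF pathway were followed in a list of 88, of which 80 were measured. None passed over all genes in limma, with or without the block. At an unadjusted p under 0.05 without the block, 4 were higher and 3 lower, where 2.60% of all genes were higher and 3.06% lower. In the blocked fit 4 were higher and 10 lower at that p, where 4.01% of all genes were higher and 5.12% lower. Their median log2 change was -0.03, with 31 higher and 49 lower, against -0.02 for all genes, of which 55.4% were lower.

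Among 15 locally acting FGF ligands, 7 were higher and 8 lower, and 6 lay above the olfactory range. Fgf22 had 5.54 ± 0.12 in DMSO and 5.82 ± 0.09 with GW4064 (log2 level ± SD, n = 3 arrays each), a difference of 0.27 (limma adjusted p = 0.851). Fgf1, a ligand that binds every FGF receptor, had 5.84 ± 0.16 and 5.57 ± 0.15, a difference of -0.26 (adjusted p = 0.893). In both genes the groups did not overlap, as for 4.58% of all genes upwards and 6.19% downwards. Fgf23, the endocrine FGF of bone that governs phosphate, had a level of 2.72 in both groups, not above the olfactory range. Of the 4 FGF homologous factors, which stay inside cells, 2 were higher and 2 lower, among them Fgf13 at a difference of -0.15 and Fgf14 at -0.09.

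Coreceptors and membrane partners held the lowest and highest differences of the 80. Of 19 measured, 9 were higher and 10 lower. Hs6st1, which sulfates the heparan chains that FGFs and their receptors share, lay at 7.38, 7.54 and 7.39 in DMSO and at 7.82, 8.02 and 7.90 with GW4064. All GW4064 arrays were higher, by 0.48 on average (SE 0.10, limma adjusted p = 0.365, 0.177 with the block). Sdc4, a core protein that carries such chains, lay at 10.15, 10.12 and 10.34 and then at 9.80, 9.74 and 9.87. All GW4064 arrays were lower here, with a mean difference of -0.40 (SE 0.10, limma adjusted p = 0.569, 0.253 with the block). Of the 19 genes, 2 lay apart upwards and 1 downwards, against 4.58% and 6.19% of all genes.

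Inside the cell, adaptors and the MAP kinase cascade had 4 of 20 measured genes higher and 16 lower, with a median of -0.07, against 9894 higher and 12286 lower among all genes. Gab1, a docking protein of receptor kinases, had a difference of -0.32 (SE 0.11) with no overlap. Pik3r1, the regulatory subunit of PI3 kinase, had -0.32 (SE 0.16) with overlap. Their limma adjusted p was 0.783 and 0.928. Of the 20 genes, 2 lay apart downwards, against 6.19% of all genes. Of 13 feedback inhibitors and phosphatases, 5 were higher and 8 lower. Spry1, an inhibitor of receptor kinase signalling, had 0.21 (SE 0.09), and Dusp6, the ERK phosphatase that FGF signalling induces, had -0.28 (SE 0.13). Their limma adjusted p was 0.863 and 0.926. The Dusp6 difference was -0.088 over the mean of all its probe sets, -0.15 without GW4064 replicate 3 and -0.18 without DMSO replicate 2.

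Of 8 measured transcription factor and early genes that FGFs induce, 3 were higher and 5 lower. Egr1 had a difference of -0.37 (SE 0.12, limma adjusted p = 0.789), with no overlap between groups. It was the 1 gene of the 8 that lay apart downwards, against 6.19% of all genes. Ier3 had -0.39 (SE 0.21, limma adjusted p = 0.935), with overlap.

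The liver side of the bile acid loop held the 1 pathway gene that passed. Nr0b2, the repressor SHP through which FXR acts on bile acid synthesis, rose from 4.51 ± 0.06 to 6.89 ± 0.22 (n = 3 arrays each, limma adjusted p = 1.17e-04, 0.0042 with the block). Nr1h4, the FXR gene, had -0.72 (adjusted p = 0.0535, 0.0618 with the block). The other genes of these 5, named to complete the list, were Cyp8b1 at -0.20, Cyp7a1 at -0.06 and Nr5a2, the receptor LRH-1, at -0.05, each with a limma adjusted p of 0.998. The Cyp7a1 mean level of 2.19 was not above the olfactory range, so a fall could not be seen there. Cyp8b1 had a mean level of 4.09, above that range.

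**Figure D4:**
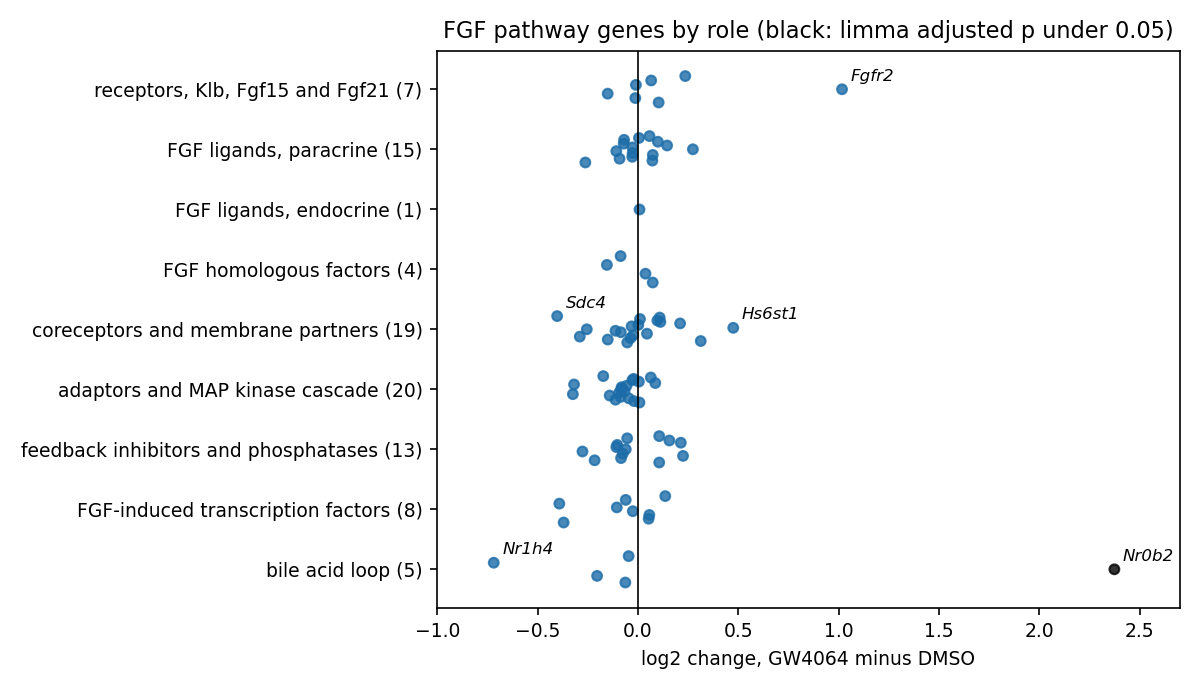
Log2 change (GW4064 minus DMSO) of the 7 genes and of 85 further genes of the FGF pathway and bile acid loop, 1 point per gene, by role, with the number measured in brackets. Nr0b2, at 2.37, is the only point past the threshold in limma, and Fgfr2, at 1.02, lies apart from the other FGF genes.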

How the data were processed

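Total RNA was labelled and measured on 6 one-colour Affymetrix MoGene-2_0-st arrays, per the labels' protocols. The authors deposited RMA-normalized log2 intensities, 1 value per probe set and array. RMA and Partek are named without versions, per the submitters' processing notes. The log base was read from the range, 0.94 to 13.07. Of 41345 probe sets, 23521 have 1 gene symbol, 1814 several and 16010 none, which left 22180 genes, 1082 of them with several probe sets.

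GW4064 was compared with DMSO over all genes with limma 3.58.1 in R 4.3.3 (lmFit, eBayes, no filter, Benjamini-Hochberg). On simulated data, with noise drawn from the fit's own variance model, it was only required to recover the mean size of added changes. That does not vouch for the share of false calls in these data. Where separate cultures are not stated, p-values measure the spread between these arrays. An exact permutation test of 3 against 3 cannot go below 0.1. Same-numbered arrays deviated together (correlations 0.26, 0.34 and 0.45, each over 0.1), so blocked values are given.

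The 7 genes, the lists and tests were chosen with earlier results of these data known. Named are the 7, 2 genes per pathway list with the smallest p, those called, 3 treatment checks and 5 genes most like Fgfr2 above the 25th percentile of level. Alternatives were normalization, centring, filters, probe set choice, variance model, block and arrays left out.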

Additional observations from a re-analysis of the deposited data

How the results depend on the processing

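The count of 0 for the 7 FGF genes was the same in all alternatives except 2 that were chosen after seeing the data, the replicate block without genes under the median level and the replicate block with a trended, robust variance model, which each called 1, Fgfr2. Under these 2 the number of genes called in all was 52 (11 lower) and 338 (168 lower), against 11 (none lower), and of pathway genes 3 and 8, against 1. The 3 were Nr0b2, Nr1h4 and Hs6st1, and the 8 also held Sdc4, Gab1, Pik3r1, Ier3 and Ext1, the last named after its value was seen. The replicate block alone called 18 genes (2 of them lower), the trended, robust model without it 17 (3 lower), and the latter and the filter at the median level called 2 pathway genes. With arrays or pairs left out, 2 to 5 genes were called without the block, and 13, 6 and 4 with it. The sign of uncalled differences turned in several genes when arrays or pairs were left out. The range was -0.31 to 0.021 for Fgfr1, -0.20 to 0.14 for Fgfr3, -0.00070 to 0.15 for Fgfr4, -0.076 to 0.51 for Klb, -0.17 to 0.26 for Fgf21, -0.31 to 0.014 for Fgf13 and -0.089 to 0.089 for Fgf23. Fgf15 kept its sign, between 0.017 and 0.26. The replicate block does not alter the difference itself, so the reversals with a pair left out were the same with it. They were 0.14 and 0.030 for Fgfr3 (without replicate 1 or 3) and 0.10 for Fgf21 (without replicate 2). For Fgf23 they were -0.00029 and -0.0044 (without replicate 2 or 3). Under quantile normalization Fgf21 was at 0.0042. The causes were not tested. Levels near or within the olfactory range limit what can be seen for Fgf15, Fgf23, Cyp7a1 and Col3a1, and 3 arrays a group limit every value. The values of Fgfr2 (3.79) and Klb (3.63) in DMSO array 2 also lay under the olfactory percentile of 3.80, which limits their second pair.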
